A study of Drosophila melanogaster with 4 samples.

Results

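The genes that carry a cell from G2 through mitosis were followed in wing imaginal discs of third-instar Drosophila melanogaster larvae, the epithelia that form the adult wing. The set was a fixed list of 56 symbols naming genes of mitotic entry, the kinetochore and its checkpoint, the spindle and centrosome, chromosome structure, and anaphase, exit and cytokinesis. A gene belonged to the set when its symbol in the deposited tables was on the list, whatever its values. The list held 55 distinct genes, because wee1 and Wee1 are spellings of 1 gene and only Wee1 appeared. All 55 were listed in at least 1 of the 4 tables, among 7451 genes listed in the whole series.

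Entry into mitosis is driven by Cdk1 bound to a mitotic cyclin. The kinases Wee1 and Myt1 hold Cdk1 inactive and the Cdc25 phosphatase encoded by stg releases it, and in wing discs stg transcription is a known control point for the G2-M step. Chromosomes are then compacted by condensin and attached to spindle microtubules through kinetochores. The spindle checkpoint blocks the anaphase-promoting complex until all are attached, after which cohesin is cleaved and the cell divides at the cleavage furrow. Transcripts of most of these genes rise in G2 and mitosis, and they are commonly used to score dividing cells.

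Each of the 4 genotypes was sampled by 1 single-cell RNA-seq library made from 100 to 120 pooled discs dissociated with trypsin. All 4 carried ap-Gal4 driving GFP. Control carried nothing further (ap-Gal4>GFP/+). Cdk8-CycC depletion added UAS-Cdk8i-cycCi/+, Med12 depletion added UAS-Med12i/+, and the combined depletion, Cdk8-CycC-Med12, added UAS-Cdk8i-cycCi-Med12i/+. These constructs express RNA interference against subunits of the CDK8 kinase module, a detachable part of the Mediator complex of RNA polymerase II, and kto is the fly gene for Med12. The ap-Gal4 driver acts in the dorsal compartment of the disc, so the depletion falls in the GFP-positive cells, and the cells without GFP in the same discs serve as the reference. For each library the authors' deposited table gave, per gene, the fold between the mean expression of GFP-positive and GFP-negative cells and the share of each cell set in which the gene was detected. The fold is given here as log2 and is positive where GFP-positive cells had more. Folds are differences between cell sets and not levels. With 1 library per genotype no value has a replicate error and no difference between genotypes was tested.

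The tables held 5524 genes for Control, 6799 for Cdk8-CycC, 5568 for Med12 and 6377 for the combined depletion. Neither the cell number nor the molecules per cell of a library are stated in the sources used here. The targeted genes had lower shares in GFP-positive than in GFP-negative cells of the libraries that target them, the reverse of Control. Shares of Cdk8 in GFP-positive and GFP-negative cells were 18.9% and 11% in Control. They were 9% and 11.5% in Cdk8-CycC and 16.8% and 21.5% in the combined depletion. For CycC the shares of GFP-positive and GFP-negative cells were 43.2% and 32.4% in Control, against 18.9% and 32.2% in Cdk8-CycC and 32.8% and 48% in the combined depletion. The shares for kto were 38.6% and 28.6% in Control, 32% and 38.9% in Med12, and 35% and 45.4% in the combined depletion. The GFP transcript split the sets completely, 100% against 0%, so the sets appear to be defined by its detection and the split is no check. The gene nub, which marks the wing pouch, was found in 100% of both sets, so the tables appear to cover nub-expressing cells. Other pouch markers were not uniform. In GFP-positive and GFP-negative Control cells the shares were 64.2% and 52.4% for vg and 67.8% and 64.8% for rn. The log2 fold of vg was -0.026 in Control, -0.076 in Cdk8-CycC, 0.18 in Med12 and 0.22 in the combined depletion. Neither Med12 nor the combined depletion listed rn, and only Cdk8-CycC listed sd. None of 5 hemocyte markers was listed in any table, and of 6 myoblast markers only Mef2 was listed, in Cdk8-CycC and the combined depletion. Markers of other disc regions and cells were listed and differed between the cell sets. The shares of the 3 peripodial markers summed to 105.3% in GFP-positive and 42.3% in GFP-negative cells of Control, 105.9% and 28.3% in Cdk8-CycC, 109.1% and 41.1% in Med12 and 103.7% and 23% in the combined depletion. Those of the 4 notum markers summed to 88.7% and 49.8% in Control, 99.9% and 58% in Cdk8-CycC and 92.6% and 63.5% in the combined depletion, and Med12 listed only 2 of them. Of 3 hinge markers 2 or 3 were listed in each table, of 4 neuron and sensory organ markers 1 to 3, and of 2 tracheal markers 1 in Med12 and the combined depletion. The part of these cell types in the values of the mitotic genes was not tested. Most genes had the higher share in the GFP-positive set in every library, with a median log2 ratio of the shares of 0.47 in Control, 0.56 in Cdk8-CycC, 0.40 in Med12 and 0.45 in the combined depletion.

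A gene was listed only where the authors' p-value over cells was below 0.01, so an unlisted gene has no value. The mitotic genes were listed 47 times in Control, 54 in Cdk8-CycC, 33 in Med12 and 52 in the combined depletion. Of the 55 genes, 30 were listed in all 4 tables, 17 in 3, 7 in 2 and 1 in 1. The Med12 table lacked 22 of them, among them stg, CycA, aurA, aurB, BubR1, Klp61F, fzy, pav, scra and the cohesin genes SMC1, SMC3 and vtd. Control lacked Cks30A, Klp10A, SMC1, SMC2, Top2, cnn, msps and tacc, which therefore have no difference from control. Exons of Cdc16 and sti overlap another gene on the same strand in the reference annotation (CG6763 and lncRNA:CR45168), so reads of these genes may be shared.

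In Control, where GFP-positive cells carry only the driver and GFP, mitotic genes lay close to 0. Of the 46 with a share of at least 10% in either set, 24 were above 0 and 22 below, with a median log2 fold of 0.00099 and a range from -0.061 (Klp3A, a spindle kinesin) to 0.062 (His2Av, a histone variant). The median of all 5052 genes was 0.0041, and 54.7% of them were above 0. No mitotic gene passed the size rule used throughout, a fold of at least 1.3 (0.38 on the log2 scale) with a share of at least 10% in either set, which 0.317% of all genes passed upward and 0.0792% downward. The regulators of mitotic entry were as flat as the rest, with Control folds of 0.040 for stg, 0.013 for CycB, 0.056 for Cdk1 and -0.0018 for polo.

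**Figure D1:**
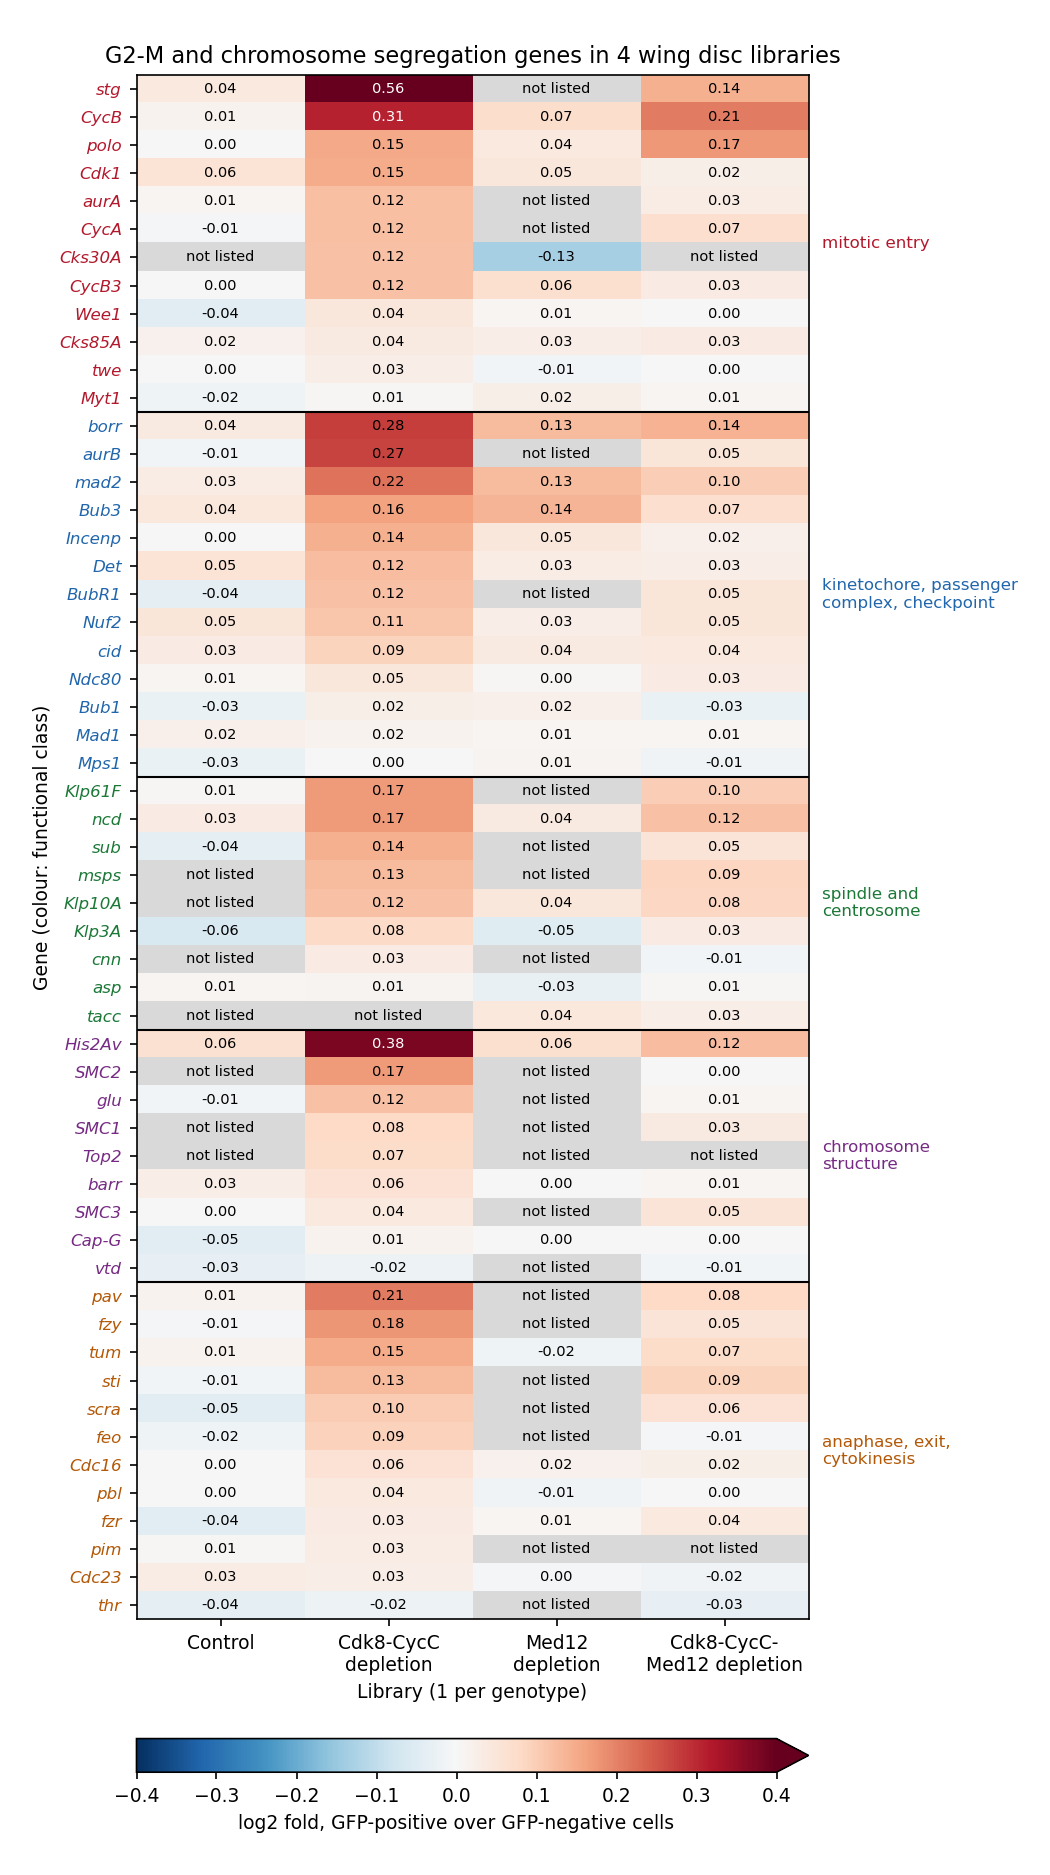
Log2 fold of GFP-positive over GFP-negative cells (colour and printed value) for the 55 genes, in rows grouped by function, in each of the 4 libraries (columns). The Cdk8-CycC column is the reddest, led by stg at 0.56, while Control values stay within 0.062 of 0.

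Under Cdk8-CycC depletion nearly the whole mitotic set was higher in the depleted cells than in the GFP-negative cells of the same discs. Within that library 52 of 54 genes had a log2 fold above 0, with a median of 0.11 against 0.025 for all 6059 genes, and stg alone (1.85%) passed the size rule upward, against 0.413% of all genes. Relative to Control, 45 of 47 measured genes (95.7%) were above 0, against 75.5% of all 5073 genes. The median difference of the log2 folds was 0.11, against 0.026 for all genes. The difference exceeded the median of all genes for 39 of the 47, and 12 lay above the value that bounds the highest 2.5% of all genes (0.15). By the ratio of detection shares 45 of 47 were also above 0, with a median of 0.19 against 0.088 for all genes. The shift was small per gene. Only stg passed the size rule upward and none downward, 1 of 47 genes (2.13%) against 0.0394% of all genes called higher and 0.0788% called lower. This call was lost when the deposited fold, whose base is not stated, was read as log2, which put stg at 0.36, and at a fold of 1.5. A higher fold can come from more cells in G2 and mitosis, or more RNA per such cell, among GFP-positive cells. It can also come from the reverse among the GFP-negative cells used as the reference. These cannot be told apart here, and the shares of each cell set against Control are given below.

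**Figure D2:**
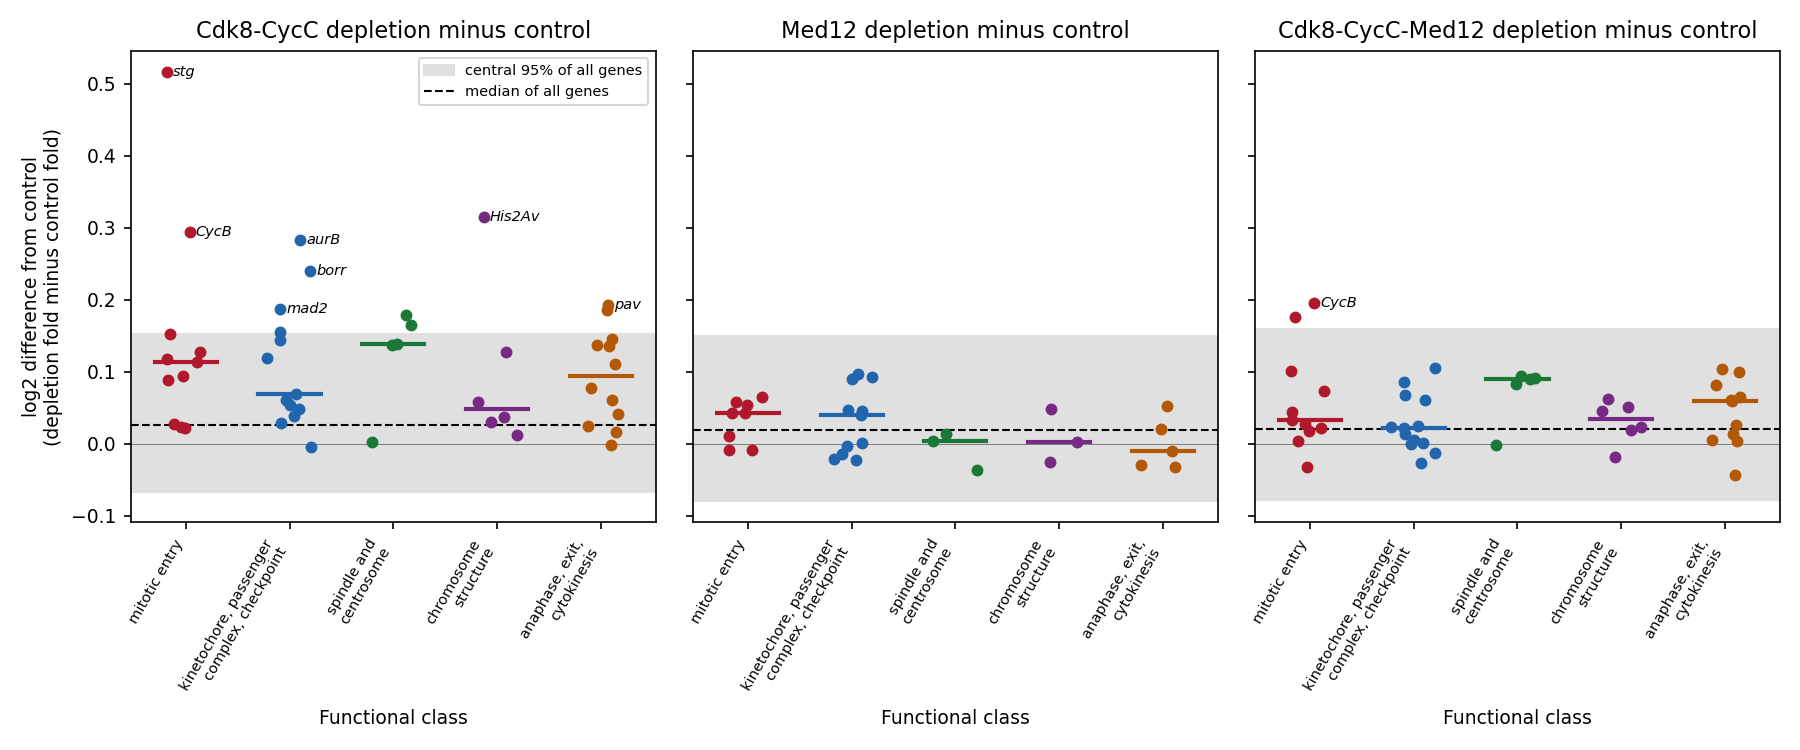
Log2 fold in a depletion library minus that in Control (vertical axis) for each gene (points), by functional class (horizontal axis), in 3 panels. Coloured bars are class medians, the dashed line is the median of all genes and the grey band their central 95%. In the Cdk8-CycC panel 12 points lie above the band and all 5 class medians are above the dashed line. In the combined panel the kinetochore class median of 0.022 is close to that line, at 0.021.

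Mitotic entry genes were all higher relative to Control, 11 of 11 with a median difference of 0.11. The Cdc25 gene stg led them, with log2 folds of 0.040 in Control, 0.56 in Cdk8-CycC and 0.14 in the combined depletion, and it ranked first among all 5073 genes in its difference from Control (0.52). Detection shares of stg were 82.5% for GFP-positive and 68.2% for GFP-negative cells in Control, 90% and 67.1% in Cdk8-CycC and 87.1% and 74.3% in the combined depletion. In Cdk8-CycC the 2 cell sets were 22.9 percentage points apart for stg, against 14.3 in Control. CycB, a mitotic cyclin, had folds of 0.013 in Control, 0.31 in Cdk8-CycC, 0.070 in Med12 and 0.21 in the combined depletion and ranked 15th. Its shares were 75.4% for GFP-positive and 65.1% for GFP-negative cells in Control, 84.8% and 62.5% in Cdk8-CycC, 86.1% and 78.3% in Med12 and 90% and 78.8% in the combined depletion. In Cdk8-CycC its share thus rose in GFP-positive cells and fell in GFP-negative cells compared with Control. The Polo kinase gene polo had folds of -0.0018 in Control, 0.15 in Cdk8-CycC, 0.040 in Med12 and 0.17 in the combined depletion, so the combined depletion had the highest value. Folds of CycA, another mitotic cyclin, were -0.0065 in Control, 0.12 in Cdk8-CycC and 0.066 in the combined depletion, and those of CycB3 were 0.00045 in Control, 0.12 in Cdk8-CycC, 0.065 in Med12 and 0.033 in the combined depletion. Cdk1 itself changed less, with folds of 0.056 in Control, 0.15 in Cdk8-CycC, 0.047 in Med12 and 0.024 in the combined depletion and a difference of 0.094 in Cdk8-CycC. The gene of Aurora A, the centrosomal kinase, had folds of 0.0080 in Control, 0.12 in Cdk8-CycC and 0.030 in the combined depletion.

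By fold, the kinases that restrain Cdk1 were in the lower part of this class. Wee1 had folds of -0.045 in Control, 0.044 in Cdk8-CycC, 0.0090 in Med12 and -0.00028 in the combined depletion and Myt1 had folds of -0.017 in Control, 0.0059 in Cdk8-CycC, 0.025 in Med12 and 0.0094 in the combined depletion. The differences from Control in Cdk8-CycC were 0.089 for Wee1 and 0.023 for Myt1. By the ratio of detection shares they were not low. Less the median of all genes, that difference was 0.33 for Wee1 and 0.15 for Myt1. It was 0.22 for aurA, 0.19 for CycB3, 0.14 for CycB, 0.061 for stg, 0.057 for polo and -0.080 for Cdk1. For twe, the Cdc25 gene used mainly in meiosis, the difference of the folds was 0.027. Only 9.4% of GFP-positive and 5.8% of GFP-negative Control cells held a twe transcript. Cks85A, a small Cdk-binding subunit, differed by 0.021. Its relative Cks30A was unlisted in Control and had folds of 0.12 in Cdk8-CycC and -0.13 in Med12, the lowest fold of any mitotic gene in any library.

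Of the kinetochore, chromosomal passenger and checkpoint genes, 12 of 13 were above 0 relative to Control, with a median difference of 0.070. The passenger complex, which corrects wrong microtubule attachments, held the highest values. Its kinase gene aurB had folds of -0.012 in Control, 0.27 in Cdk8-CycC and 0.049 in the combined depletion, and its Borealin gene borr had folds of 0.035 in Control, 0.28 in Cdk8-CycC, 0.13 in Med12 and 0.14 in the combined depletion. They ranked 20th and 42nd of 5073 in their difference from Control, at 0.28 and 0.24. Detection of aurB was 74.3% for GFP-positive and 63.4% for GFP-negative cells in Control, 86.3% and 67.8% in Cdk8-CycC and 87.1% and 78.1% in the combined depletion. That of borr was 63.9% for GFP-positive and 50.3% for GFP-negative cells in Control, 76.5% and 51.2% in Cdk8-CycC, 85.1% and 72.1% in Med12 and 83.5% and 69.5% in the combined depletion, so its GFP-negative share barely moved between Control and Cdk8-CycC. The scaffold gene Incenp differed by 0.14 and Det, the fly Survivin, by 0.070, the smallest difference of the 4 passenger genes.

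Among checkpoint genes mad2, whose product inhibits the anaphase-promoting complex, had folds of 0.030 in Control, 0.22 in Cdk8-CycC, 0.13 in Med12 and 0.098 in the combined depletion. BubR1, a partner of Mad2 in that inhibitor, had folds of -0.037 in Control, 0.12 in Cdk8-CycC and 0.049 in the combined depletion, and Bub3, which recruits it, 0.043 in Control, 0.16 in Cdk8-CycC, 0.14 in Med12 and 0.066 in the combined depletion. Their differences from Control in Cdk8-CycC were 0.19, 0.15 and 0.12. Upstream checkpoint genes moved less in fold. The differences were 0.049 for the kinase gene Bub1, 0.028 for the kinase gene Mps1 and -0.0047 for Mad1, which anchors Mad2 at kinetochores. These upstream genes were detected in fewer Control cells than mad2, BubR1 and Bub3. By the ratio of detection shares the order differed. Less the median of all genes, the difference was 0.27 for Mps1, 0.088 for Bub1 and 0.074 for Mad1. It was 0.12 for BubR1, -0.039 for mad2 and -0.075 for Bub3. At the kinetochore itself, the microtubule-binding pair Nuf2 and Ndc80 differed by 0.061 and 0.038 in fold. The centromeric histone gene cid differed by 0.054 in fold, with shares of 18.9% for GFP-positive and 12.2% for GFP-negative cells in Control, 27.9% and 10.4% in Cdk8-CycC, 32.2% and 19.8% in Med12 and 34.1% and 21.5% in the combined depletion. Its GFP-positive share thus rose by 9 points in Cdk8-CycC over Control, while its GFP-negative share fell by 1.8 points.

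Spindle genes had the highest class median in Cdk8-CycC relative to Control, 0.14, with 5 of 5 above 0. The kinesin gene sub, which acts in the central spindle, had folds of -0.037 in Control, 0.14 in Cdk8-CycC and 0.053 in the combined depletion. Klp61F, the bipolar kinesin that pushes spindle poles apart, had folds of 0.0060 in Control, 0.17 in Cdk8-CycC and 0.097 in the combined depletion, with shares of 60.8% for GFP-positive and 48.1% for GFP-negative cells in Control, 67.9% and 43.5% in Cdk8-CycC and 79.2% and 63.4% in the combined depletion. From Control to Cdk8-CycC the GFP-negative share of Klp61F fell by 4.6 points. The minus-end kinesin gene ncd had folds of 0.033 in Control, 0.17 in Cdk8-CycC, 0.036 in Med12 and 0.12 in the combined depletion, and Klp3A had folds of -0.061 in Control, 0.077 in Cdk8-CycC, -0.048 in Med12 and 0.033 in the combined depletion. Differences were 0.18 for sub, 0.16 for Klp61F, 0.14 for ncd, 0.14 for Klp3A and 0.0022 for asp, a spindle pole gene. Of the genes unlisted in Control, the microtubule depolymerase gene Klp10A had folds of 0.12 in Cdk8-CycC, 0.045 in Med12 and 0.083 in the combined depletion. The microtubule polymerase gene msps had 0.13 in Cdk8-CycC and 0.085 in the combined depletion. The centrosome gene cnn had 0.034 in Cdk8-CycC and -0.010 in the combined depletion, and tacc, which works with msps, had 0.043 in Med12 and 0.028 in the combined depletion.

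Genes of chromosome structure were above 0 in 6 of 6 cases, with the lowest class median, 0.047. It was led by His2Av, the only H2A variant of flies, which ranked 10th of 5073. His2Av had folds of 0.062 in Control, 0.38 in Cdk8-CycC, 0.065 in Med12 and 0.12 in the combined depletion, with shares of 96.9% for GFP-positive and 95.5% for GFP-negative cells in Control, 99.1% and 97.5% in Cdk8-CycC, 98.9% and 97.5% in Med12 and 99.1% and 97.4% in the combined depletion. Its difference of the folds was 0.31, and its shares were near 100% in every library and could show little change. Condensin genes followed, with differences of 0.13 for glu, 0.058 for Cap-G and 0.030 for barr. SMC2, the partner of glu in condensin, had folds of 0.17 in Cdk8-CycC and -0.0010 in the combined depletion. The cohesin genes SMC3 and vtd differed by 0.037 and 0.012, and SMC1 had folds of 0.080 in Cdk8-CycC and 0.035 in the combined depletion. Top2, the topoisomerase that untangles sister chromatids, was listed only in Cdk8-CycC, with a fold of 0.074 and shares of 87.6% and 75.5%.

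Of the anaphase, exit and cytokinesis genes 11 of 12 were above 0, with a median difference of 0.094. The kinesin gene pav and the GTPase activator gene tum encode centralspindlin, which places the furrow. They had folds of 0.014 in Control, 0.21 in Cdk8-CycC and 0.078 in the combined depletion for pav, and 0.014 in Control, 0.15 in Cdk8-CycC, -0.016 in Med12 and 0.073 in the combined depletion for tum. Detection of pav was 59.7% for GFP-positive and 48.3% for GFP-negative cells in Control, 76.3% and 52.8% in Cdk8-CycC and 81.5% and 68.1% in the combined depletion. The mitotic activator of the anaphase-promoting complex, fzy, had folds of -0.0093 in Control, 0.18 in Cdk8-CycC and 0.052 in the combined depletion, with shares of 59.6% for GFP-positive and 46.6% for GFP-negative cells in Control, 68.6% and 43.6% in Cdk8-CycC and 78.3% and 63.8% in the combined depletion. Its counterpart of mitotic exit and G1, fzr, had -0.043 in Control, 0.034 in Cdk8-CycC, 0.0092 in Med12 and 0.039 in the combined depletion. Subunit genes of that complex differed by 0.060 (Cdc16) and -0.0025 (Cdc23), the securin gene pim by 0.024 and the separase gene thr by 0.016. Among genes of the furrow, the anillin gene scra differed by 0.15, the citron kinase gene sti by 0.14 and the midzone crosslinker gene feo by 0.11.

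Genes detected in many cells gave most of the shift. Of the 24 mitotic genes found in at least 50% of GFP-positive Control cells, 24 were above 0 with a median of 0.14, against 0.038 for all 1463 genes so detected. Of the 23 found in fewer cells, 21 were above 0 with a median of 0.049, against 0.022 for 3610 genes. A pseudocount, assumed here in the authors' fold, would lower the difference of weakly expressed genes. Over the 30 genes listed in all 4 tables, a subset chosen by listing, the medians were 0.065 in Cdk8-CycC, 0.012 in Med12 and 0.023 in the combined depletion. For all genes listed in all 4 tables they were 0.026, 0.020 and 0.022. In this subset the combined depletion was thus close to all genes, and Med12 was below them.

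Detection shares were compared with Control in each cell set of the Cdk8-CycC library separately. In GFP-positive cells the shares of 45 of 47 mitotic genes rose over Control, by a median of 7.5 percentage points, against 6.3 for all 5073 genes. In GFP-negative cells 26 rose, 19 fell and the median rise was 0.7 points, against 2.5 for all genes, of which 4042 rose and 971 fell. On the scale of -ln(1-share), which has more room near 100%, the medians of the log2 ratios between the libraries were 0.35 for mitotic genes and 0.36 for all genes in GFP-positive cells. In GFP-negative cells they were 0.037 and 0.20. Among genes in at least 50% of GFP-positive Control cells, the GFP-negative rise was 1.8 points for mitotic genes and 5.5 points for all genes. Their GFP-positive rise was 8.65 points for mitotic genes and 7.7 points for all genes. Among genes in fewer cells the GFP-positive rise was 5.3 points for mitotic genes and 5.75 points for all genes. The fold and detection ratio of mitotic genes against the sister cells of the same discs thus rose while their GFP-positive shares moved about as much as those of other genes. Numbers of molecules per cell are unknown, so how far depth moved these shares was not tested.

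Genes of the furrow and midzone differed in their GFP-negative shares, which were lower in Cdk8-CycC than in Control for pbl, sti, scra and feo and higher for the centralspindlin genes pav and tum. The share of pbl in GFP-negative cells fell from 45.7% in Control to 37.2% in Cdk8-CycC, while in GFP-positive cells it was 55.5% and 56.2%. For sti the GFP-negative shares were 52.8% and 48.8%, and the GFP-positive shares 63.6% and 70.8%. Shares of scra were 55% and 52.4% in GFP-negative cells, and 65.8% and 72% in GFP-positive cells. For feo they were 61% and 59% in GFP-negative cells, and for tum 43.8% and 45.8%. By class, the median change in GFP-negative cells was -0.5 points for mitotic entry, -2.4 for the spindle and -0.4 for anaphase, exit and cytokinesis. It was 1.9 points for the kinetochore class and 2.5 for chromosome structure. The gene with the largest rise in GFP-negative cells was mad2, from 45.3% to 56.4%. Bub1 was the only gene whose share fell in both sets, to 29.7% from 30.7% and to 19.1% from 22.3%.

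**Figure D3:**
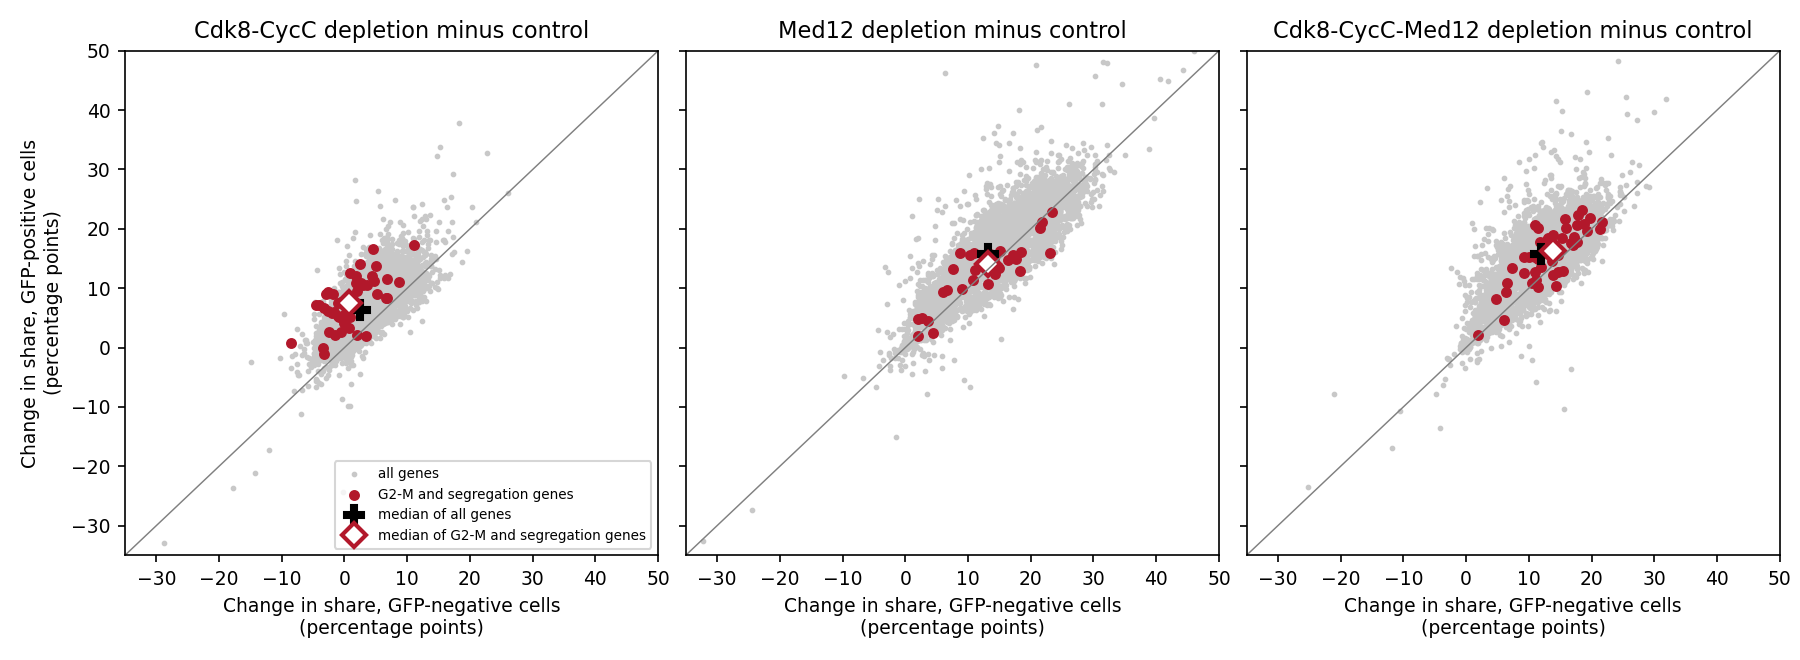
Change of detection share from Control, in percentage points, in GFP-negative cells (horizontal axis) and GFP-positive cells (vertical axis), for all genes (grey) and mitotic genes (red), in 3 panels, 1 per depletion. In the Cdk8-CycC panel the median of the mitotic genes, at 0.7 and 7.5 points, lies to the left of that of all genes, at 2.5 and 6.3 points.

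Within each library every listed mitotic gene had its higher share in the GFP-positive set. The ratio of the shares reached 1.3 for 24 of 46 mitotic genes in Control (52.2%), against 71.2% of all genes. In Cdk8-CycC it did so for 44 of 54 (81.5%), against 74% of all genes. In Med12 the counts were 12 of 33 (36.4%) against 54.7%, and in the combined depletion 21 of 52 (40.4%) against 61.6%. The mitotic share was thus above that of all genes in Cdk8-CycC and below it in the other 3 libraries. A ratio of 1.3 is out of reach where the GFP-negative share is already high, as for Bub3, Cdk1 and His2Av in Med12. The genes listed also differ between libraries. How far either enters these shares was not tested.

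In the difference from Control of these ratios, cid, twe and Wee1 passed the 1.3-fold rule upward in Cdk8-CycC, and no mitotic gene passed it downward. These 3 of 47 genes (6.38%) compare with 4.91% of all genes called higher and 0.473% called lower. After the median of all genes was subtracted, cid and twe remained, against 2.27% of all genes. In Med12 and the combined depletion no mitotic gene passed by this ratio. There 1.03% and 2.34% of all genes were called higher, and 1.95% and 0.683% lower. The log2 ratios of the shares were 0.63 in Control and 1.42 in Cdk8-CycC for cid, 0.70 and 1.43 for twe, and 0.51 and 0.93 for Wee1. All 3 were detected in well under 50% of cells of either set in both libraries. In GFP-positive and GFP-negative cells of Cdk8-CycC the shares were 27.9% and 10.4% for cid. They were 11.6% and 4.3% for twe, and 26.7% and 14% for Wee1. In this comparison twe met the 10% minimum only through GFP-positive cells of Cdk8-CycC, the set where it was highest. Its calls here, also after centring, rest on that set. For stg, which passed by its fold, the ratio of the shares was 0.27 in Control and 0.42 in Cdk8-CycC.

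**Figure D4:**
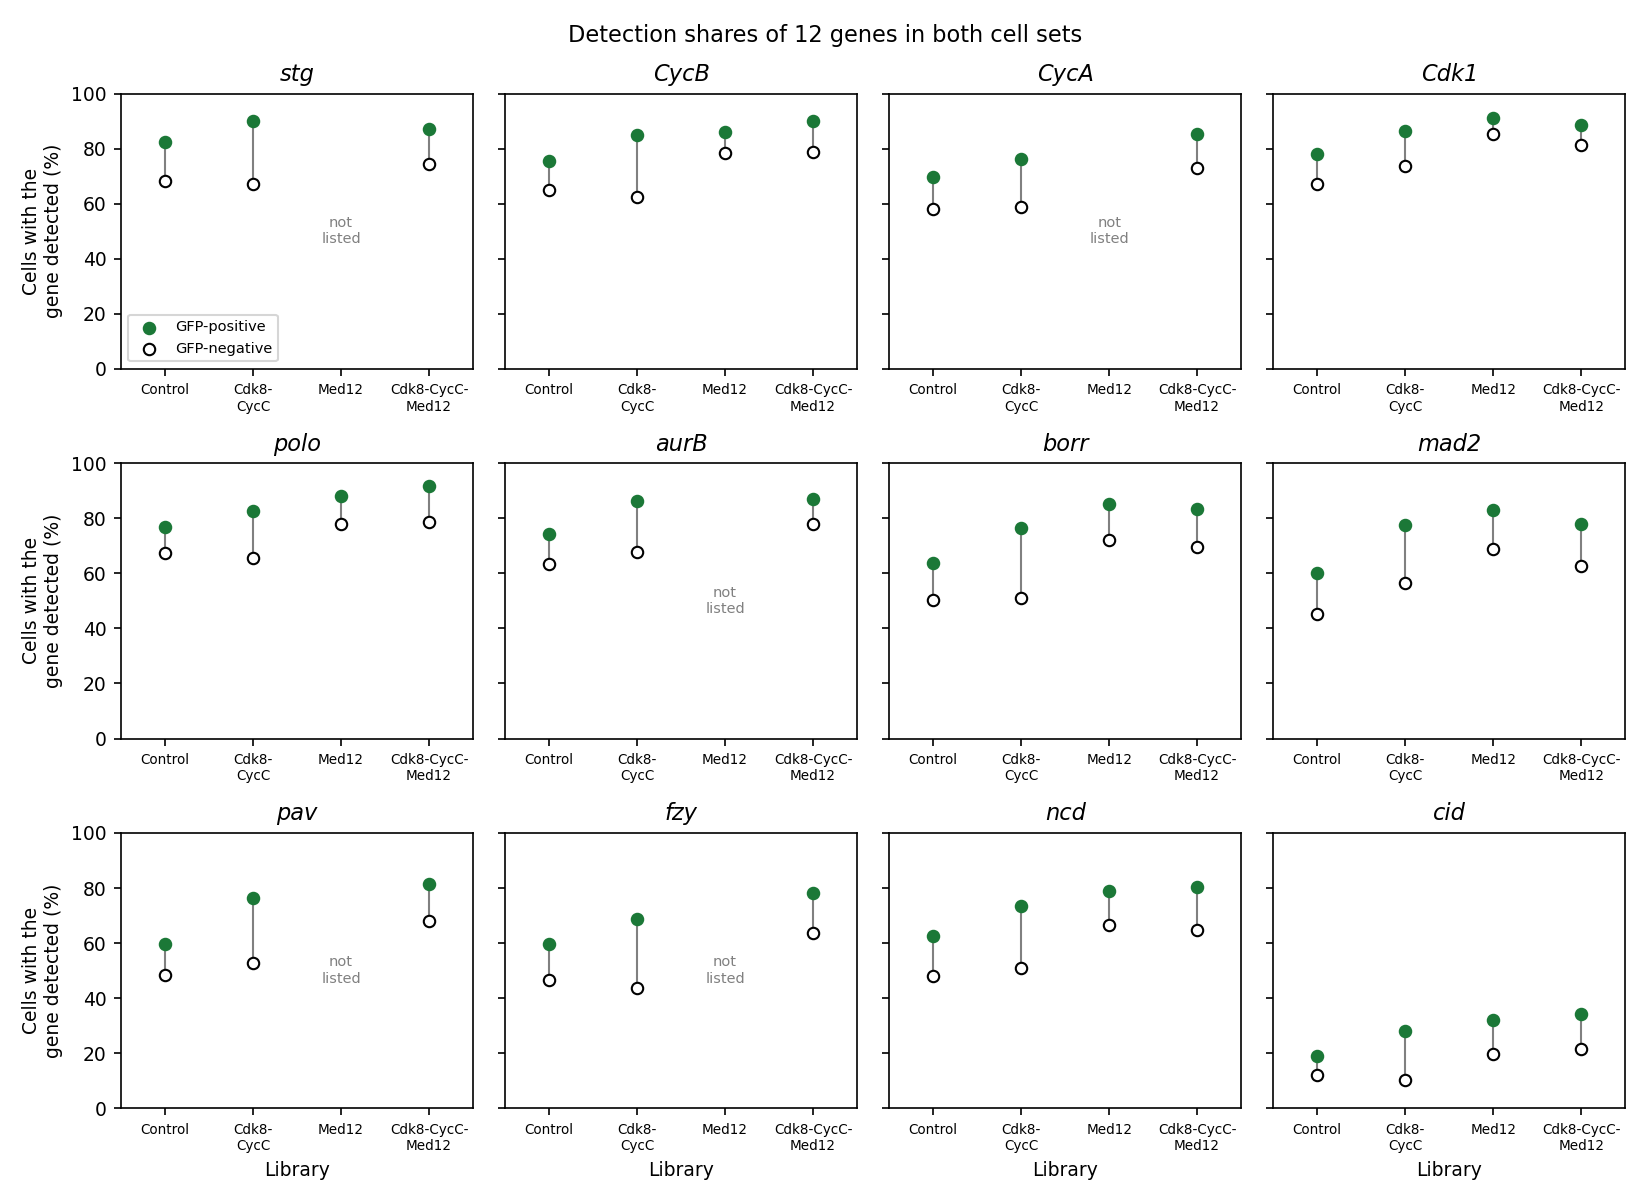
Share of GFP-positive cells (filled circles) and GFP-negative cells (open circles) in which each of 12 genes was detected, in percent, in the 4 libraries. The gap is widest in Cdk8-CycC for all 12 genes. The GFP-negative share there is lower than in Control for stg, CycB, polo, fzy and cid and higher for the rest.

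Under Med12 depletion the mitotic genes lay on both sides of 0. Relative to Control 19 of 30 measured genes (63.3%) were above 0, less than the 69.6% of all 4473 genes. The median difference was 0.012, against 0.019 for all genes. No mitotic gene passed the size rule in either direction, which 0.268% of all genes passed upward and 0.112% downward. By the ratio of detection shares 8 of 30 were above 0, and the median turned to -0.089, against -0.086 for all genes. On the -ln(1-share) scale it was -0.028 and on the odds scale 0.065, against -0.023 and 0.083 for all genes. By fold, the checkpoint and passenger genes mad2 (0.097), Bub3 (0.093) and borr (0.090) had the highest values, followed by CycB3 (0.064) and CycB (0.058). The lowest were asp (-0.036), Cdc23 (-0.033), tum (-0.030), barr (-0.025) and Det (-0.023). Class medians ran from 0.042 for mitotic entry, with 6 of 8 above 0, to -0.010 for anaphase, exit and cytokinesis, with 2 of 5 above 0. They were 0.039 for the kinetochore class with 7 of 11 above 0, and 0.0031 for the spindle and 0.0030 for chromosome structure, each with 2 of 3 above 0. Shares rose in both cell sets and by similar amounts, 14.1 points in GFP-positive and 13.2 points in GFP-negative cells, against 15.7 and 13.2 for all genes. In GFP-positive and GFP-negative cells polo rose from 76.8% and 67.3% in Control to 88.1% and 78.1%. Because the 22 unlisted genes include stg and aurB, nothing can be said of these in Med12.

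In the combined depletion the mitotic genes lay between the others, with 39 of 46 (84.8%) above 0 relative to Control, against 71.3% of all genes. The median difference was 0.030, against 0.021 for all 4835 genes, and 30 of the 46 exceeded that median. No mitotic gene passed the size rule, which 0.207% of all genes passed in each direction. By the ratio of detection shares the direction turned, with 15 of 46 above 0 and a median of -0.038, against -0.029 for all genes. This turn depended on the scale of the shares. The median was 0.050 on the -ln(1-share) scale and 0.19 on the odds scale, against 0.053 and 0.18 for all genes. The differences of the folds ran from -0.043 for Cdc23 to 0.20 for CycB. After CycB came polo (0.18), borr (0.10), scra (0.10) and stg (0.10), and the lowest after Cdc23 were Cdk1 (-0.032), Det (-0.027), barr (-0.018) and Mad1 (-0.013). Spindle genes had the highest class median, 0.090 with 4 of 5 above 0, from Klp3A (0.094), Klp61F (0.091), sub (0.090) and ncd (0.083), while asp was at -0.0022. Class medians of the rest were 0.059 for anaphase, exit and cytokinesis, 0.034 for chromosome structure, 0.033 for mitotic entry and 0.022 for the kinetochore class. The counts above 0 were 10 of 11, 5 of 6, 10 of 11 and 10 of 13. Shares rose in GFP-positive cells by a median of 16.2 points and in GFP-negative cells by 13.8 points, against 15.8 and 11.9 for all genes. All 3 differences from Control use the same control library.

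Comparisons between depletions, which do not use Control, placed Cdk8-CycC depletion highest. Against Med12, 30 of 32 mitotic genes were higher in Cdk8-CycC, with a median of 0.052 against 0.0051 for all 5040 genes, of which 55.2% were higher. The highest were His2Av (0.31), Cks30A (0.25), CycB (0.24) and tum (0.17), and the 2 below 0 were Myt1 (-0.019) and Mps1 (-0.011). No mitotic gene passed the size rule there, with 0.119% of all genes called higher and 0.298% lower. By the ratio of detection shares 7 of 32 passed it, namely cid, twe, CycB3, Wee1, Nuf2, Cdc23 and Cdc16 (21.9%), against 8.63% of all genes. After the median of all genes was subtracted this fell to cid and twe, against 2.12% of all genes.

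Directly against Cdk8-CycC, the combined depletion was lower for 46 of 51 mitotic genes, with a median of -0.048 against -0.0045 for all 5633 genes, of which 3089 were lower. Only stg passed the size rule, at -0.41 (1.96% of the 51 genes), with 0.249% of all genes called lower and 0.142% called higher. This call too was lost with the fold read as log2, where stg was at -0.29, and at a fold of 1.5. Below stg in size came His2Av (-0.25), aurB (-0.22), SMC2 (-0.17), borr (-0.14), pav (-0.13), Cdk1 (-0.13), fzy (-0.13), Incenp (-0.12) and mad2 (-0.12). Together with stg these 10 genes lay below the value that bounds the lowest 2.5% of all genes, -0.11. The 5 genes above 0 were polo (0.024), SMC3 (0.015), vtd (0.011), fzr (0.0049) and Myt1 (0.0035). Of CycB and polo, which followed stg within their class in Cdk8-CycC, CycB was at -0.099 and polo slightly above 0. Every class median was below 0, from -0.069 for the kinetochore class, with 0 of 13 above 0, to -0.041 for anaphase, exit and cytokinesis. In GFP-negative cells the shares of mitotic genes were higher in the combined depletion by a median of 13.1 points, against 8.8 for all genes. In GFP-positive cells the values were 8.4 and 8.6 points. By the ratio of detection shares cid, twe and Wee1 (5.88%) were lower in the combined depletion, against 3.66% of all genes. The median of all genes by this ratio was -0.12, and Wee1 no longer passed after it was subtracted.

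**Figure D5:**
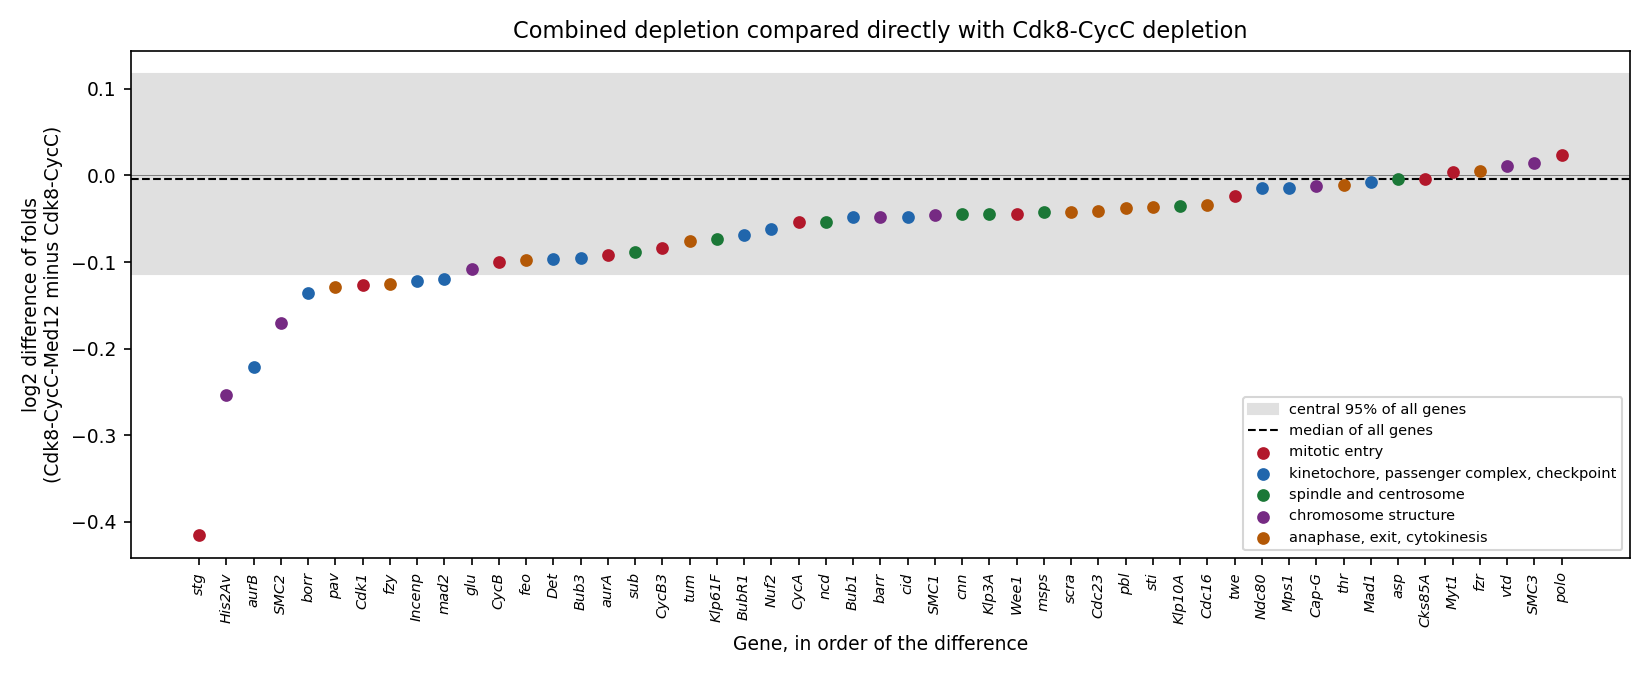
Log2 fold in the combined depletion minus that in Cdk8-CycC (vertical axis) for 51 genes in order of the difference (horizontal axis), coloured by class, with the median (dashed) and central 95% (grey) of all genes. The 46 points below 0 start with stg at -0.41, and 10 lie below the band.

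Between the combined depletion and Med12 depletion the mitotic genes split more evenly. Of 32 mitotic genes 19 were higher in the combined depletion, with a median of 0.0058 against 0.0023 for all 4981 genes, of which 52.3% were higher. The extremes were CycB (0.14), polo (0.13) and tum (0.089) on the upper side and Bub3 (-0.070), Bub1 (-0.045) and CycB3 (-0.032) on the lower side. None passed the size rule, with 0% of all genes called higher and 0.0602% lower.

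Other mitotic genes, outside the set, were also mostly above 0 in Cdk8-CycC. Of 103 other genes of mitotic entry, kinetochore, spindle, condensin and cohesin, anaphase and cytokinesis, 78 were measured in Cdk8-CycC relative to Control. Of these 67 were above 0, with a median of 0.042, and 53 exceeded the median of all genes. In Med12 37 of 66 were above 0, with a median of 0.0089, and 29 exceeded the median of all genes. In the combined depletion 50 of 75 were above 0, with a median of 0.020, and 37 exceeded that median. The shares above 0 were 85.9% in Cdk8-CycC, 56.1% in Med12 and 66.7% in the combined depletion, so in Med12 and the combined depletion they were below those of all genes, 69.6% and 71.3%. None passed the size rule upward or downward in any of these 3 comparisons. The largest in Cdk8-CycC were msd1 (0.19), cmet (0.17) and san (0.16), a spindle assembly gene, a kinetochore kinesin gene and a cohesion acetyltransferase gene. The largest in Med12 were the septin genes Sep5 (0.16) and Sep1 (0.12) and the gene of heterochromatin protein HP1a (-0.10). In the combined depletion they were cmet (0.15), the centrosomal tubulin gene gammaTub23C (0.13) and Sep1 (0.11). Sep5 was at -0.017 in Cdk8-CycC, below 0. The tables list the septin genes under date-like symbols, and they were matched by gene identifier.

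Genes of the G1-S transition and DNA replication were also mostly above 0 in Cdk8-CycC. Relative to Control, 43 of 46 measured genes of a list of 50 were above 0 in Cdk8-CycC (93.5%), with a median of 0.14, and 42 exceeded the median of all genes. In Med12 23 of 38 were above 0 (60.5%), with a median of 0.011, and 17 exceeded that of all genes. In the combined depletion 39 of 44 were above 0 (88.6%), with a median of 0.058, and 34 exceeded that of all genes. The shares of all genes above 0 were 75.5%, 69.6% and 71.3%. In Cdk8-CycC 1 of the 46, Mcm7 (0.39), passed the size rule, against 0.0394% of all genes called higher. It was named after its value was seen. Against Cdk8-CycC the combined depletion was lower for 44 of 48 of these genes, with a median of -0.085. How far a common shift of all cycling genes enters the values of the mitotic set was not tested.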

How the data were processed

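Droplet-based 10x Genomics single-cell RNA-seq of wing discs was processed with Cell Ranger 3.0.2 and Seurat, per the submitters' processing notes. Which Seurat release, genome build and cell filters were used, and whether doublets were removed, is not stated in the sources used here. No coordinates are printed for that reason. Mixed droplets, if kept, would fall in the GFP-positive set.

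Each deposited table compares the GFP-positive with the GFP-negative cells of 1 library. The fold deposited by the authors is a log whose base and pseudocount the header does not state, and it was assumed to be a natural log with a pseudocount of 1. Another base would scale all log2 values by 1 factor. The authors' detection values, deposited as a fraction of each cell set, are printed as percent. The deposited p-value, computed by the authors over cells, was used only to describe the listing at 0.01. The depth is unknown, so no interval is given.

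Folds were converted to log2 and signed by the column naming the higher set. Differences between libraries used genes listed in both tables. Calls were by size, a fold of at least 1.3 with detection of at least 10% in one set, because 1 library per genotype allows no test. The same steps run on simulated tables returned the folds and shares put in. The alternatives were the log base, call fold, detection minimum, centring, detection ratios, unlisted genes set to 0, other scales of the shares and subsets of genes.

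The genes and lists were chosen with earlier results of these data known. Values were named for genes past the size rule, the 5 of each class furthest from Control in any depletion, the main regulators, and the 5 highest and lowest of each depletion. Of the other mitotic genes, those past the rule and the 3 furthest from Control were named, and of the G1-S genes the counts and medians. Older symbols were looked up in RefSeq and gene name tables. Python 3.11.15, pandas 2.3.3, numpy 2.4.6, scipy 1.17.1 and matplotlib 3.10.9 were used.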

Additional observations from a re-analysis of the deposited data

How the results depend on the processing

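No paired analysis was possible because each genotype has 1 library, and for the same reason no replicate could be left out. Of 138 alternative values for the main medians, counts and detection results, 97 kept their direction and stayed within 1.5 times the value reported. This tally overstates stability. Reading the fold as log2 scales every median of the folds by 1 factor, which always stays within that limit. Counts of 0 that stayed 0 are also included, and these have no direction to keep. Neither another detection minimum nor restriction to genes under 90% detection changed these beyond the values given here. The 3 subsets by detection level or without the leading genes were chosen after seeing the data.

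The Cdk8-CycC median relative to Control stayed above 0 throughout. It was 0.19 by detection ratio, 0.065 over genes in all 4 tables and 0.049 over genes in under 50% of GFP-positive Control cells. Its count of 1 gene called, stg, became 4 at a fold of 1.2 and 3 by detection ratio. It became 0 at a fold of 1.5 and with the deposited fold read as log2. It was also 0 over genes in all 4 tables, over genes under 50% detection, and without stg, His2Av, CycB and aurB. These subsets do not hold stg, so their count was fixed in advance. Of the direct comparisons, the combined depletion against Cdk8-CycC had a median of -0.23 by detection ratio. Its called count of 1 became 3 by detection ratio, and 0 at a fold of 1.5 or with the fold read as log2. It was also 0 over genes in all 4 tables, which do not include stg. Cdk8-CycC against Med12 had medians of 0.27 by detection ratio and 0.082 with unlisted genes set to 0. There 1 gene was called at a fold of 1.2, 7 by detection ratio and 1 with unlisted genes set to 0.

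Directions in Med12 and the combined depletion were not stable. The Med12 median became -0.0077 after centring on all genes, -0.089 by detection ratio and 0.025 with no control subtracted. The combined median became 0.0088 after centring, -0.038 by detection ratio and 0.061 over genes in at least 50% of GFP-positive Control cells. Against Med12 it was 0.0035 after centring, 0.044 by detection ratio and 0.014 with unlisted genes set to 0. By detection ratio Med12 values turned to -0.075 for CycB, -0.11 for borr, -0.00043 for His2Av, -0.017 for polo and -0.14 for mad2. In the combined depletion they turned to -0.045 for stg, -0.020 for CycB, -0.072 for aurB, -0.080 for borr, -0.089 for mad2 and -0.047 for pav. Directly against Med12 they were 0.027 for Cdk1 and 0.048 for mad2, and against Cdk8-CycC 0.0015 for His2Av and -0.12 for polo. Centring turned His2Av in Med12 to -0.016 and the Control median to -0.0031. With no control subtracted Cdk1 was 0.047 in Med12 and 0.024 in the combined depletion. The cause of these changes was not tested.

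The median difference of detection ratios from Control was 0.32 in Cdk8-CycC on the -ln(1-share) scale, 0.49 on the odds scale and 0.10 after centring. In Med12 these were -0.028, 0.065 and -0.0026, and in the combined depletion 0.050, 0.19 and -0.0086. The log2 ratio of GFP-negative shares to Control, centred on all genes, was -0.12 in Cdk8-CycC, -0.17 in Med12 and -0.12 in the combined depletion, where the uncentred values were above 0. That the depth of the libraries is unknown limits every statement on shares.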
